A study of Mus musculus with 12 samples.

Results

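The numbered zinc finger protein genes of the mouse, those whose symbol is Zfp followed by digits alone, are described here across wild-type and Rasgef1b knockout macrophages with and without the agonist R848. They were chosen by symbol and by level: an array row had to carry 1 gene symbol, the brightest row of a symbol was used, and its mean over all 12 arrays had to reach 5 on the log2 scale. Zfp36, which encodes an mRNA decay protein of another finger type, was left out. Of 335 numbered Zfp symbols with a row of their own, 161 (48.1%) reached the limit, out of 22180 genes on the array with such a row. The mean level is therefore a property of the choice and is given as a description. No difference between groups was used as such. Near the limit, though, a change with R848 could decide whether the mean reached it, and 16 members had 1 or more group means under 5.

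Bone marrow-derived macrophages were grown in L929-conditioned medium from wild-type mice and from Rasgef1b fl/fl vav-iCre mice, in which Cre driven by the Vav promoter removes the floxed gene in blood-forming cells. The 4 groups were wild type with saline, wild type with R848 for 4 h, knockout with saline and knockout with R848 for 4 h, with 3 arrays each. R848 is a small molecule that activates TLR7 and TLR8, sensors of single-stranded RNA in endosomes, and Rasgef1b encodes an exchange factor for Ras-family GTPases. The labels give no time for saline, no ages of the mice and no group with Cre alone, so Cre and loss of Rasgef1b cannot be told apart, and nothing states that replicates are separate mice or cultures.

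Most proteins of this family carry arrays of C2H2 fingers, short loops held by a zinc ion that each contact a few bases of DNA. Many also carry a KRAB domain, which recruits the co-repressor Trim28 and through it the histone methyltransferase Setdb1 and heterochromatin protein, and a large share of these KRAB proteins bind and silence transposable elements. The number in a symbol is only the order of naming, so the set also holds activators, RNA-binding proteins and ribosome factors, some with other kinds of finger.

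Levels are given as log2 intensities after RMA, and 1 unit more means a doubling. Levels of different genes come from different probes and are not compared with each other. Rasgef1b itself read 9.03, 9.19 and 9.14 in wild-type saline and 8.63, 7.88 and 8.72 in knockout saline. Under R848 it read 9.84, 9.84 and 9.69 in wild type and 9.45, 8.60 and 9.36 in knockout. Every knockout array was lower than the wild-type arrays of its treatment, and the difference averaged over treatments was -0.68 ± 0.15 (SE, n = 6 and 6, limma adjusted p = 0.036). How many of its probes lie in the deleted part is not given in the sources used here. Il1b, an inflammatory cytokine gene, lay between 3.73 and 4.21 on the saline arrays and between 12.03 and 12.13 on the R848 arrays. All 10 macrophage markers examined were above the dim limit on every array, whereas 4 of 5 T cell, 3 of 4 B cell, 4 of 8 neutrophil and precursor and 3 of 6 fibroblast markers with a row were dim on all. Of 5 dendritic cell markers 1 was dim on all and 3 were above the limit on all, the highest being Cd209a (mean 8.85). Of 3 erythroid and megakaryocyte markers 2 were dim on all, and Pf4 had a mean of 9.72. The part of these cell types in the results was not tested. On the arrays of all 4 groups the mean of the T cell markers lay between 4.04 and 4.15, that of the dendritic cell markers between 5.19 and 5.52 and that of the erythroid and megakaryocyte markers between 5.85 and 6.01. Arrays of 1 group correlated between 0.9909 and 0.9964 over 14079 tested genes, and arrays of different groups between 0.9159 and 0.9945.

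All 161 genes passed the filter on dim rows and exceeded the dim limit, which lay between 4.31 and 4.35, on all 12 arrays. Of these, 66 had a mean of 6 or more and 25 a mean of 7 or more. Level depends on each row's probes, so the highest means are given only to place the rows: Zfp207 (8.80), a kinetochore and splicing protein, Zfp706 (8.09), Zfp638 (7.94), a nucleic acid-binding nuclear protein, Zfp263 (7.90) and Zfp960 (7.79). The members just inside the limit were Zfp57 (5.017), Zfp13 (5.016) and Zfp27 (5.003), and the symbols just outside were Zfp697 (4.997), Zfp612 (4.984) and Zfp942 (4.977). In 16 members 1 or more group means lay under 5. A further 17 numbered Zfp symbols appear only in rows that name several genes and were not described.

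After 4 h of R848, more numbered Zfp genes fell than rose. In wild-type cells 11 of 161 rose (6.8%) and 48 fell (29.8%) at a limma adjusted p under 0.05. Over all tested genes 14.6% rose and 23.6% fell. In knockout cells 13 rose (8.1%) and 56 fell (34.8%), where 15.6% of all tested genes rose and 26.0% fell. The median change was -0.13 for the members and -0.02 for all tested genes in wild type, and -0.15 and -0.03 in knockout. Among the 10217 tested genes that meet the same limit of 5, 18.5% rose and 29.1% fell in wild type, and 19.0% rose and 32.1% fell in knockout. The share that fell thus lay near that of tested genes at the same limit, and the share that rose lay below it in each genotype. Those genes were brighter as a set: 4513 of the 10217 had a mean of 7 or more, beside 25 of the 161 members. In wild type the share of tested genes that rose was 8.28% at a mean of 5 to 5.5 and 26.2% at 7 or more. The part of brightness in the lower share was not tested. In bulk RNA, fewer cells of a type and less RNA per cell cannot be told apart.

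The split between rising and falling members moved with the scaling between arrays. Centring each array on its median over the tested genes, a setting added after seeing the data, shifted the median of all tested genes in wild type from -0.02 to 0.11, and in knockout from -0.03 to 0.12. It gave 26 rising and 36 falling members in wild type and 27 and 39 in knockout. Cyclic loess gave 20 and 38 in wild type and 17 and 45 in knockout. Relative to the median of all tested genes, the member median lay at -0.10 in wild type and -0.13 in knockout as deposited, at -0.10 and -0.13 after that centring, and at -0.07 and -0.08 after cyclic loess.

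The changes of single members were mostly modest. The 48 falling members in wild type ranged from -1.41 to -0.24 with a median of -0.52, and the 11 rising members from 0.24 to 1.57 with a median of 0.66. In wild type 4 members rose and 5 fell by at least 1 log2 unit, and in knockout 4 and 5. These are 2.48% and 3.11% of the members in each genotype. Of all tested genes, called or not, 3.84% rose and 3.38% fell as far in wild type, and 3.87% and 3.84% in knockout. Large changes were thus few over the whole array as well. The R848 and saline arrays did not overlap for 21 members on the higher and 57 on the lower side in wild type, that is for more members than passed the test. Over all tested genes such separation was seen for 19.5% on the higher and 28.6% on the lower side. In knockout the counts were 17 and 63 members, beside 19.6% and 29.3% of all tested genes. Of the 102 members not called in wild type, 93 had a 95% interval of the change that lay within 0.5 log2 units of 0.

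**Figure D1:**
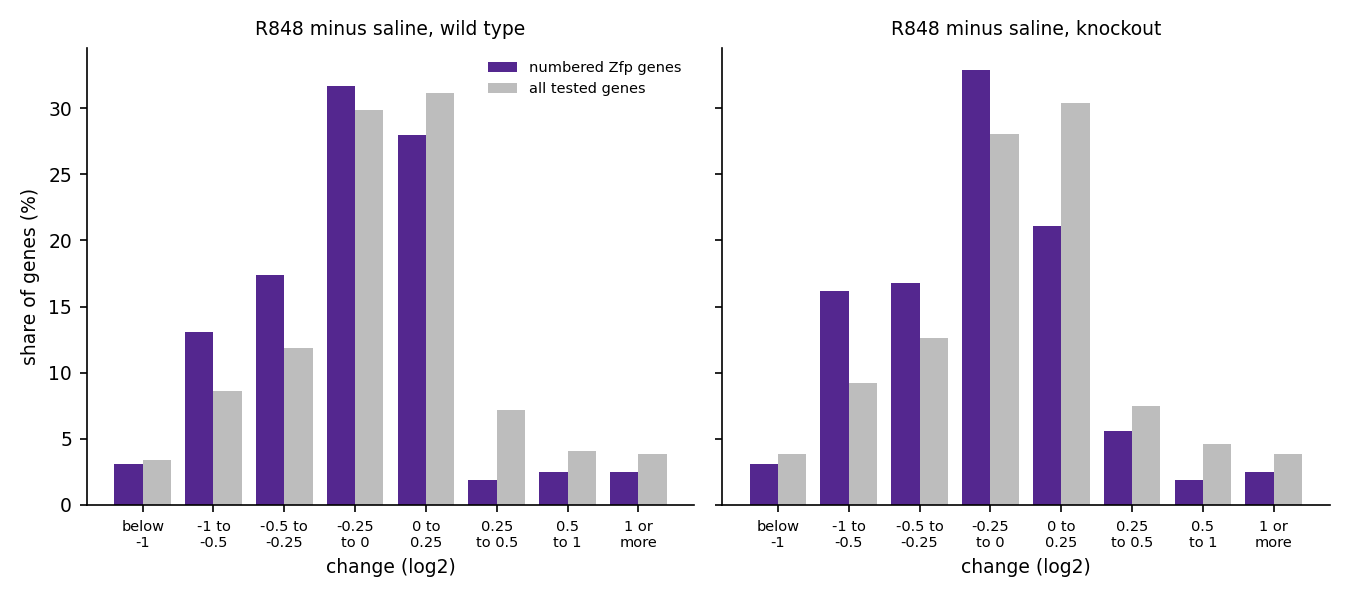
Share of genes (%) in bins of the R848 change (log2, R848 minus saline) for the 161 numbered Zfp genes and all 14079 tested genes, in wild type (left) and knockout (right). In wild type 17.39% of the members and 11.88% of all tested genes lay from -0.5 to -0.25, and 1.86% and 7.20% lay from 0.25 to 0.5.

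The strongest increase was that of Zfp263, a SCAN and KRAB zinc finger protein. Zfp263 read 7.0, 7.11 and 7.11 in wild-type saline and 8.51, 8.79 and 8.63 with R848. In knockout it read 7.19, 6.96 and 7.05 in saline and 8.80, 8.85 and 8.78 with R848. All 6 R848 arrays lay above all 6 saline arrays, with no overlap. The change was 1.57 ± 0.09 (SE, n = 3 and 3, 2.97-fold, limma adjusted p = 1.54e-09) in wild type and 1.74 ± 0.09 (3.35-fold, adjusted p = 4.27e-10) in knockout.

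Zfp281 encodes a GC-box-binding factor best known from pluripotent cells. Its saline values were 6.14, 6.22 and 6.56 in wild type and 6.16, 6.55 and 6.43 in knockout. With R848 they were 7.63, 7.80 and 7.72 in wild type and 7.61, 7.92 and 7.80 in knockout. Here too every R848 array was above every saline array. The wild-type rise was 1.41 ± 0.12 (2.66-fold, limma adjusted p = 2.84e-07) and the knockout rise 1.40 ± 0.12 (adjusted p = 2.78e-07).

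Zfp719 was near the dim end without agonist, at 4.94, 4.39 and 4.83 in wild-type saline and 4.64, 4.68 and 4.79 in knockout saline. With R848 it read 6.01, 6.04 and 6.13 in wild type and 6.03, 6.10 and 6.09 in knockout. The R848 arrays lay within a narrow band above all saline arrays. The rise was 1.34 ± 0.11 (2.53-fold, limma adjusted p = 1.95e-07) in wild type and 1.37 ± 0.11 (adjusted p = 1.37e-07) in knockout. Since both saline means, 4.72 and 4.70, lie under 5, Zfp719 reached the limit of the set through its R848 arrays.

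Zfp800 read 6.92, 6.80 and 6.77 in wild-type saline and 8.05, 7.99 and 7.87 with R848, and 6.99, 6.86 and 7.0 in knockout saline and 8.25, 8.23 and 8.07 with R848. It is the fourth member that more than doubled, by 1.14 ± 0.08 (limma adjusted p = 3.01e-08) in wild type and 1.23 ± 0.08 (adjusted p = 1.12e-08) in knockout. Zfp821 averaged 5.74 ± 0.16 (SD, n = 3) in wild-type saline and 6.43 ± 0.03 with R848, and the knockout means were 5.68 ± 0.07 and 6.61 ± 0.12. It rose in both genotypes (limma adjusted p = 1.65e-05 and 7.85e-07). Its R848 arrays, at 6.40 or above, did not overlap with its saline arrays, at 5.91 or below.

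The other rising members moved by less than 1 log2 unit. Zfp131, a BTB-domain zinc finger factor, rose by 0.62 ± 0.08 in wild type and 0.67 ± 0.08 in knockout, and Zfp871 by 0.54 ± 0.08 and 0.50 ± 0.08. Zfp513, linked to inherited retinal degeneration, rose by 0.48 ± 0.09 and 0.30 ± 0.09, and Zfp319 by 0.24 ± 0.07 and 0.25 ± 0.07. Limma adjusted p for these 4 lay between 9.09e-06 and 0.0169. A second, dimmer row of Zfp319, at a mean of 5.11, changed by 0.07 in wild type and -0.07 in knockout. All 11 members that rose in wild type also rose in knockout, and the knockout had Zfp407 (0.31 ± 0.08, adjusted p = 0.00684) and Zfp853 (0.28 ± 0.09, adjusted p = 0.0215) besides. In wild type their changes were 0.09 ± 0.08 and 0.03 ± 0.09.

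Among falling members Zfp395, a factor described as binding the huntingtin gene promoter, changed most. Zfp395 read 6.62, 6.86 and 6.51 in wild-type saline and 5.18, 5.31 and 5.27 with R848. In knockout it read 6.80, 6.65 and 6.77 in saline and 5.13, 5.31 and 5.37 with R848. The lowest saline array lay above the highest R848 array by a wide margin in each genotype. In wild type it fell by 1.41 ± 0.10 (2.66-fold lower, limma adjusted p = 1.83e-08), and the knockout value fell by 1.47 ± 0.10 (adjusted p = 1.03e-08).

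Zfp652 encodes a transcriptional repressor that works with the corepressor Cbfa2t3. Its saline values were 7.70, 7.75 and 7.76 in wild type and 7.97, 7.81 and 7.70 in knockout, and its R848 values were 6.64, 6.40 and 6.42 and 6.38, 6.28 and 6.43. Saline and R848 arrays were fully separate. Wild-type cells had a change of -1.25 ± 0.09 (limma adjusted p = 2.7e-08), and knockout cells one of -1.46 ± 0.09 (adjusted p = 4.11e-09).

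Zfp946 read 5.88, 5.74 and 6.08 in wild-type saline and 5.41, 5.17 and 5.54 in knockout saline. The knockout arrays were lower in saline, by 0.53 on average, without passing the test (limma adjusted p = 0.098). With R848 the values met, at 4.72, 4.88 and 4.53 in wild type and 4.65, 4.82 and 4.51 in knockout. The change was -1.19 ± 0.12 (limma adjusted p = 1.6e-06) in wild type and -0.71 ± 0.12 (adjusted p = 0.000225) in knockout. The difference between these responses was 0.48 (95% interval 0.11 to 0.85), with an adjusted p of 0.965 over all tested genes, so it did not pass.

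Zfp704 read 6.28, 5.74 and 5.61 in wild-type saline and 5.07, 4.61 and 4.51 with R848, and fell by 1.15 ± 0.18 in wild type and by 1.29 ± 0.18 in knockout. Zfp931 read 5.90, 6.13 and 5.95 in wild-type saline and 5.30, 4.49 and 5.16 with R848, and fell by 1.01 ± 0.20 and by 1.17 ± 0.20. Zfp704, Zfp931 and Zfp946 had R848 means under 5 in both genotypes (4.73 and 4.63, 4.98 and 4.92, and 4.71 and 4.66), so they reached the limit of the set through their saline arrays. Zfp704 and Zfp931 also spread more within a group than most: their pooled SD was 0.28 and 0.32, where the median member had 0.13. Zfp362 fell by 0.75 ± 0.11 in wild type and by 1.06 ± 0.11 in knockout, the fifth member that at least halved there.

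Further members with large falls in wild type were Zfp157 (-0.97 ± 0.17), Zfp825 (-0.90 ± 0.19), Zfp266 (-0.86 ± 0.11), Zfp945 (-0.83 ± 0.12) and Zfp367 (-0.82 ± 0.16). Each of these 5 fell in knockout as well, by 0.71, 0.80, 0.90, 0.67 and 0.78. In knockout Zfp984 (-0.93 ± 0.18), Zfp960 (-0.89 ± 0.17) and Zfp90 (-0.79 ± 0.12) were also among the 10 largest falls. Zfp984 and Zfp90 fell in wild type too, by 0.65 ± 0.18 and 0.51 ± 0.12. Zfp960 changed there by -0.30 ± 0.17 (limma adjusted p = 0.204).

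**Figure D2:**
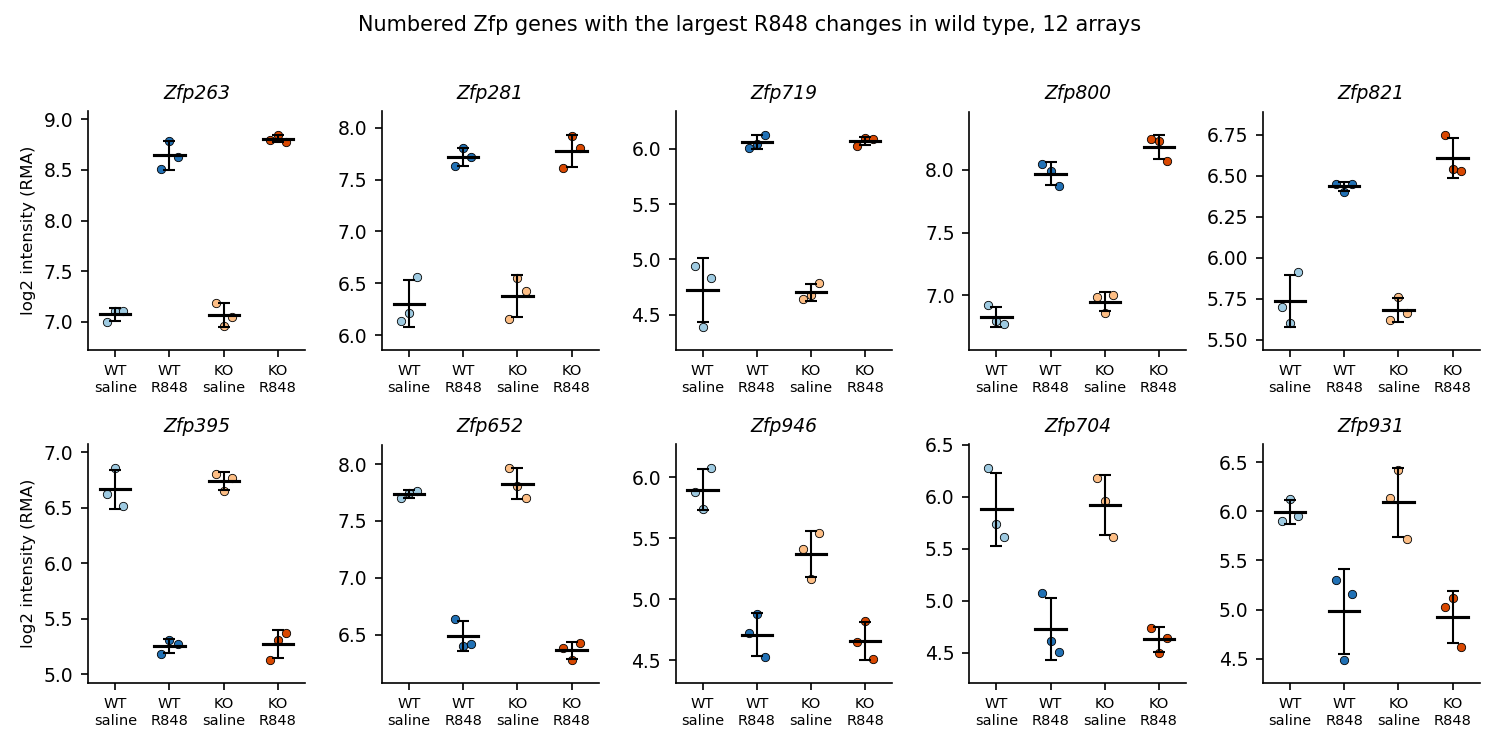
RMA log2 intensity of the 5 rising (top) and 5 falling (bottom) numbered Zfp genes with the largest R848 change in wild type, in wild type (WT) and knockout (KO) with saline or R848. Points are arrays, lines the mean and bars the SD of 3. Zfp263 lay between 6.96 and 7.19 on saline arrays and between 8.51 and 8.85 on R848 arrays, and Zfp395 between 6.51 and 6.86 and between 5.13 and 5.37.

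The promoters of 3 rising members, Zfp263, Zfp281 and Zfp719, and 3 falling members, Zfp652, Zfp946 and Zfp931, are shown since these are the largest changes in each direction with an entry in the RefSeq promoter table (build GRCm38.p6). Each run holds 250 bases before and 50 after the start listed for the gene, 5′ to 3′ on the gene's strand. Capitals mark matches on either strand to the motifs searched, which may overlap. The AP-1 motif was searched as TGANTCA and the cyclic AMP response element as TGACGTCA. The E-box was searched as CACGTG, the GC-box of Sp factors as GGGCGG and the motif of ETS factors as CCGGAAG. The CCAAT-box was searched by the letters of its name, and the NF-kB motif is given by name alone. The windows are chr16:3743849-3744148 (+ strand), chr1:136624651-136624950 (+ strand) and chr7:43579336-43579635 (+ strand) for the rising members and chr11:95748817-95749116 (+ strand), chr17:22423952-22424251 (+ strand) and chr2:178078376-178078675 (- strand) for the falling ones.
Zfp263: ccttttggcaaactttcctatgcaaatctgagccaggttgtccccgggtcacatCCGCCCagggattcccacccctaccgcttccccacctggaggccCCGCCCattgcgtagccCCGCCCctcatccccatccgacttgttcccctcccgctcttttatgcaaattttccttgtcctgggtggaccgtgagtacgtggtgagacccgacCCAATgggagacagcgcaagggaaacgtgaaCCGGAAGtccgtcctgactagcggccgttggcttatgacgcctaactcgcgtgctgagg
Zfp281: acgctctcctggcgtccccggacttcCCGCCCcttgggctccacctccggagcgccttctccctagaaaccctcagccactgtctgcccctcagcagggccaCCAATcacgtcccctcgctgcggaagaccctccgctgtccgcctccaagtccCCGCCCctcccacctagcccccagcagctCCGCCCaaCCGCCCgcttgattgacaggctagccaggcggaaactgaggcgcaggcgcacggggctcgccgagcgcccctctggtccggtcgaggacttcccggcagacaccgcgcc
Zfp719: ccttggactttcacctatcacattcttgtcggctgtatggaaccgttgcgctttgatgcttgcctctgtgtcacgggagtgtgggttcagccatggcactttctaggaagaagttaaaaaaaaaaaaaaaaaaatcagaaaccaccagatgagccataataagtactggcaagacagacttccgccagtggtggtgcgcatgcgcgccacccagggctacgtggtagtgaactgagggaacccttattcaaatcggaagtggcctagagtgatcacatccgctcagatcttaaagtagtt
Zfp652: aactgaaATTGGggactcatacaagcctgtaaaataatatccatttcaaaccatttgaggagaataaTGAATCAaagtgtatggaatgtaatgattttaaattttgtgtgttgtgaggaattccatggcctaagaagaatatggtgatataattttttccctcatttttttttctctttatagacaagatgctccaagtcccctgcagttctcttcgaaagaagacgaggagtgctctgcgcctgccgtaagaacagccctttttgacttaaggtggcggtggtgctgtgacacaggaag
Zfp946: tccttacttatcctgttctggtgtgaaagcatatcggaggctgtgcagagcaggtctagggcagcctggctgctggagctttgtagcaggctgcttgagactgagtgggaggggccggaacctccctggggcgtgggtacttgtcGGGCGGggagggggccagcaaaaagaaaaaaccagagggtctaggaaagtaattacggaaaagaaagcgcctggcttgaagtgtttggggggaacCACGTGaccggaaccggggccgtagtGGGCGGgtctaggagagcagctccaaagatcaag
Zfp931: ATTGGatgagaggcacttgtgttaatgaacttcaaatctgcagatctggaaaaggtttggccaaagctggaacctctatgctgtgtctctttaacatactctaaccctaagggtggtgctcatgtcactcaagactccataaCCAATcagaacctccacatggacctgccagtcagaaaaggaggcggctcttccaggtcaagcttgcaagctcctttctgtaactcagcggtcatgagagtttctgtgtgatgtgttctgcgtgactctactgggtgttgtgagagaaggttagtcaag

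The Zfp263 window holds 3 GC-boxes, 1 CCAAT-box and 1 ETS match, and the Zfp281 window 4 GC-boxes and 1 CCAAT-box in 70.7% G and C. The Zfp719 window held no match to the 7 motifs. On the falling side the Zfp652 window holds 1 AP-1 match and 1 CCAAT-box in 39.3% G and C, that of Zfp946 1 E-box and 2 GC-boxes, and that of Zfp931 2 CCAAT-boxes. Neither direction had a pattern shared by its 3 windows. A match is a description of letters and not a measured site.

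Full-length windows were listed for 131 of the 161 members. An ETS match was present in 24.4% of them, in 16.1% of the 10944 tested genes with a window and in 9.1% of the 27025 genes of the table. A CCAAT-box was present in 48.9% of members, 38.0% of tested genes and 37.9% of the table. A GC-box was present in 55.0%, 58.8% and 35.9%. For the motifs tied to signals downstream of TLR7, AP-1 was present in 6.9%, 5.8% and 7.9%, and NF-kB in 4.6%, 5.0% and 4.3%. Of the 40 falling members with a window in wild type, 25 (62.5%) held a CCAAT-box and 1 held an NF-kB match, and of the 10 rising members 6 and 1 did.

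Members with known roles were grouped by those roles. These lists are small, and their counts stand beside 14.6% of all tested genes that rose and 23.6% that fell in wild type, and 15.6% and 26.0% in knockout. Of 4 members known from silencing retroelements or imprinted genes, 1 rose and 1 fell in wild type, and 1 rose and 0 fell in knockout. Zfp568, a KRAB protein that represses a placental Igf2 transcript, rose by 0.26 ± 0.09 in wild type (limma adjusted p = 0.0411) and 0.31 ± 0.09 in knockout (adjusted p = 0.0164). The wild-type call was lost when any of 5 of the 6 arrays compared was left out, all but wild-type saline replicate 3, with adjusted p from 0.0539 to 0.155, and without the filter on dim rows (0.0537). The knockout call was lost without knockout R848 replicate 3 (adjusted p = 0.0894) or knockout saline replicate 2 (0.0716). Zfp809, which silences endogenous retroviruses through their primer binding site, read 6.58, 6.88 and 6.65 in wild-type saline and 6.37, 6.41 and 6.37 with R848, a fall by 0.32 ± 0.09 (adjusted p = 0.0131). In knockout it changed by -0.23 ± 0.09 (adjusted p = 0.063). Without wild-type saline replicate 2 its wild-type change was -0.23 (adjusted p = 0.0779), and under cyclic loess it was also -0.23 (adjusted p = 0.0516) and after centring over the tested genes -0.19 (adjusted p = 0.0912). The imprint guardians Zfp445 and Zfp57 changed by -0.003 ± 0.09 (95% interval -0.19 to 0.18) and -0.07 ± 0.09 (-0.27 to 0.12) in wild type.

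Of 16 members with a known part in transcription or chromatin, 2 rose and 6 fell in wild type, and 2 rose and 4 fell in knockout. The rising pair was Zfp281 and Zfp131. Zfp516, a factor of brown fat that activates Ucp1, read 6.40, 6.73 and 6.36 in wild-type saline and 5.85, 5.68 and 5.65 with R848 and fell by 0.77 ± 0.10 (limma adjusted p = 1.36e-05). Zfp219, a partner of Sox9, fell by 0.52 ± 0.12 (adjusted p = 0.00321). Zfp148, which like Zfp281 binds GC-rich promoters, moved the other way from Zfp281, by -0.35 ± 0.08 in wild type and -0.48 ± 0.08 in knockout. Zfp687, of a chromatin complex with Zmynd8, fell by 0.42 ± 0.12, while its complex partner Zfp592 changed by -0.03. Zfp410, an activator of Chd4, and Zfp384 had changes of 0.01 (95% interval -0.14 to 0.16) and 0.05 (-0.12 to 0.21) in wild type.

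Of 9 members that act on RNA, ribosomes or translation, none rose and 3 fell, in each genotype. Zfp318, needed in B cells for IgD expression, read 7.43, 7.27 and 6.97 in wild-type saline and 6.86, 6.54 and 6.21 with R848 and fell by 0.69 ± 0.17 (limma adjusted p = 0.0043). Zfp106, an RNA-binding protein of nerve and muscle, fell by 0.43 ± 0.10 (adjusted p = 0.0023), and Zfp346, which binds double-stranded RNA, by 0.36 ± 0.08 (adjusted p = 0.0014). A second, dimmer row of Zfp106 had a change of 0.10. The ribosome quality-control ligase Zfp598 changed by 0.13 ± 0.15, the ribosome maturation factor Zfp622 by -0.16 ± 0.10 and Zfp207 by 0.03 ± 0.08 (95% interval -0.15 to 0.21). Of the immune list 1 gene reached the limit of the set, Zfp366, a regulator of dendritic cells, which read 5.15, 5.17 and 5.20 in wild-type saline and 5.32, 5.33 and 5.29 with R848, a change of 0.14 ± 0.07 (adjusted p = 0.163). With R848 it was higher on all 3 wild-type arrays without passing the test.

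The proteins through which KRAB factors silence chromatin were described from a list of their own. Of 22 tested co-repressor and heterochromatin genes 1 rose and 14 fell in wild type, with a median change of -0.42, and 2 rose and 14 fell in knockout, with a median of -0.50. Over all tested genes 14.6% rose and 23.6% fell in wild type, and 15.6% and 26.0% in knockout, the shares against which the counts of the other lists stand as well. The largest falls in wild type were those of the maintenance methyltransferase gene Dnmt1 (-2.08 ± 0.14), its helper genes Hells (-1.80 ± 0.13) and Uhrf1 (-1.30 ± 0.16), and the de novo methyltransferase gene Dnmt3a (-1.26 ± 0.11). Hells was also lower in knockout than in wild type, with a difference of -0.71 ± 0.13 in saline (limma adjusted p = 0.0405) and of -0.55 ± 0.09 averaged over treatments (adjusted p = 0.0115), the 1 gene of the list that passed for genotype. Trim28 itself, picked for its role after its values were seen, fell by 0.39 ± 0.09 in wild type and by 0.56 ± 0.09 in knockout. Of 4 measured genes of the HUSH silencing complex and its partners, Morc2a rose (0.22 ± 0.08, limma adjusted p = 0.0351) and Setdb1 fell (by 0.87 ± 0.13, adjusted p = 5.78e-05) in wild type. Pphln1 and Tasor changed by 0.18 ± 0.08 and 0.12 ± 0.11 there. In knockout Pphln1 rose (0.24 ± 0.08, adjusted p = 0.0255), Setdb1 fell by 0.74 ± 0.13, and Morc2a changed by 0.12 ± 0.08 (adjusted p = 0.228).

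Other finger gene families were chosen by the same limit, at which 18.5% of tested genes rose and 29.1% fell in wild type, and 19.0% and 32.1% in knockout. Of 25 Zbtb genes, which carry a BTB domain, 1 rose and 9 fell in wild type with a median of -0.13, and 1 rose and 12 fell in knockout. Zbtb14 fell by 1.04 ± 0.10 and Zbtb18 rose by 0.62 ± 0.12 in wild type. Of 13 Zkscan and Zscan genes, which carry a SCAN domain, 1 rose and 5 fell in wild type with a median of -0.14, and 0 rose and 7 fell in knockout.

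Changes were also read by brightness, which the choice of members used. Of the 25 members with a mean of 7 or more, 7 rose and 6 fell in wild type, with a median change of -0.00. Of the 41 with a mean from 6 to 7, 2 rose and 15 fell, of the 51 from 5.5 to 6 none rose and 14 fell, and of the 44 from 5 to 5.5, 2 rose and 13 fell. Counts in knockout were 7 and 7, 2 and 16, 2 and 21, and 2 and 12 in the same order. Among all tested genes too, the share that rose was highest in the brightest class. In wild type 26.2% rose and 28.4% fell at a mean of 7 or more, and 15.6% and 37.0% from 6 to 7. The shares were 11.5% and 31.1% from 5.5 to 6, and 8.28% and 17.8% from 5 to 5.5. In knockout 27.0% of all tested genes rose and 32.1% fell at a mean of 7 or more. From 5.5 to 6 the knockout shares were 11.1% and 33.8%, and from 5 to 5.5 they were 9.25% and 19.1%. From 6 to 7 in knockout 15.8% rose, and the share that fell was the highest of these classes.

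Many numbered Zfp genes lie in clusters of tandem copies. Chromosome 7 held 35 members, 17 held 18, 8 held 14, 6 held 12 and 13 held 11. In wild type 2 rose and 7 fell on chromosome 7, 2 and 7 on 17, 2 and 3 on 8, 1 and 1 on 6, and 1 and 6 on 13. The medians of these 5 were -0.13, -0.12, -0.00, 0.02 and -0.36, and every other chromosome held 9 members or fewer. Beside these counts, 14.6% of all tested genes rose and 23.6% fell in wild type, and 18.5% and 29.1% of those with a mean of at least 5. In the order of RefSeq protein-coding genes, with at most 1 other gene between them, 32 pairs of members were neighbours, which took in 53 members. A member not classed there as protein-coding did not enter this order. The median gap between the R848 changes of 2 neighbours was 0.29 in wild type and 0.21 in knockout, and over all pairs of members it was 0.32 and 0.34. In the longest run, the 6 neighbours Zfp282, Zfp212, Zfp956, Zfp777, Zfp746 and Zfp467 on chromosome 6, 1 fell and none rose in wild type. Zfp948 rose by 0.66 in wild type next to Zfp53, which changed by -0.03. Near-identical tandem copies can share probes, and what the probes share was not examined.

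The wild-type and knockout responses went together over the members. Of the 161, 11 rose in both genotypes, 39 fell in both, 9 passed in wild type alone, 19 in knockout alone, 83 in neither and none passed in opposite directions. Thus 81.2% of the members that fell in wild type also fell in knockout, and 69.6% the other way round. The change had the same sign in 127 members. Across members, which are not independent replicates, the changes correlated with a Pearson's r of 0.93 and a Spearman's rho of 0.87 (n = 161). Pearson's r over all tested genes was 0.968, so such agreement is not particular to the members. The 2 responses share the normalization but no array. Passing in 1 genotype alone shows no difference: the interaction was tested for each member and 0 passed, with 3 at an unadjusted p under 0.05 (1.9% of members, beside 4.9% of all tested genes). Over all tested genes 0.0142% passed the interaction test by limma.

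**Figure D3:**
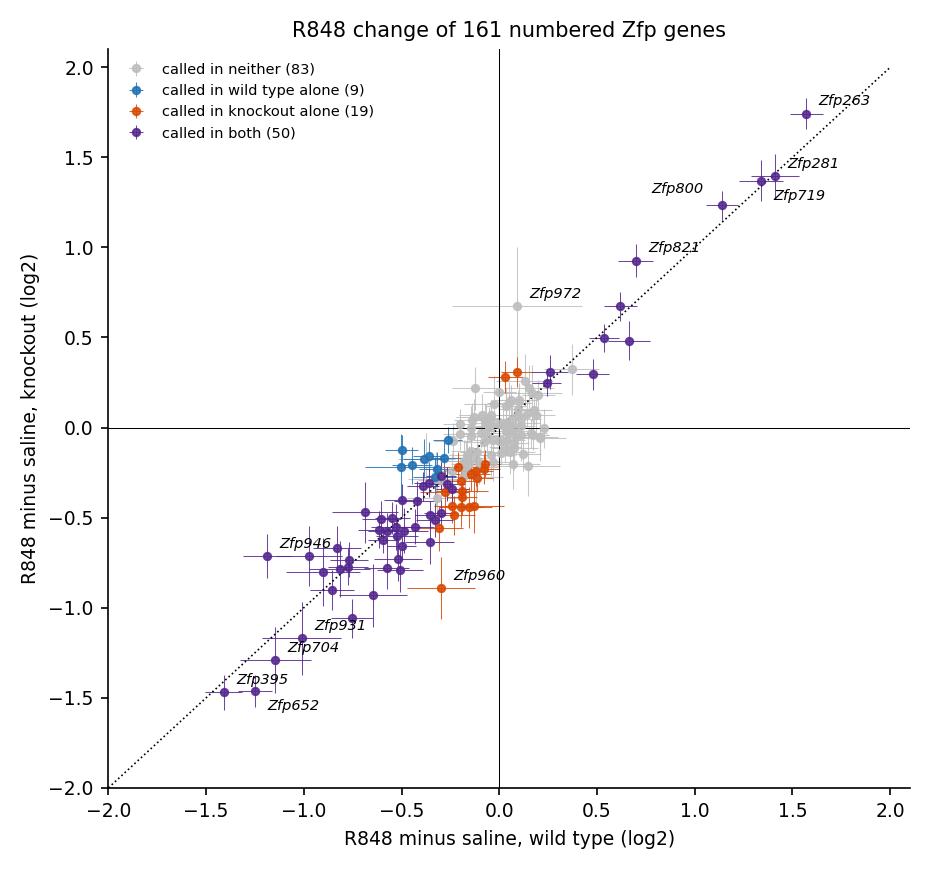
R848 change (log2, R848 minus saline) of 161 numbered Zfp genes in wild type (x axis) and knockout (y axis), with bars of 1 SE and a dotted line of equal change. Colours give where the change passed the test: 50 in both, 9 in wild type alone, 19 in knockout alone and 83 in neither. Zfp263 lies highest at 1.57 and 1.74, and Zfp960 at -0.30 and -0.89 lies off the line.

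The members with the smallest interaction p are given by their values. Zfp692 read 5.77, 5.68 and 5.72 in wild-type saline and 5.23, 5.31 and 5.13 with R848. In knockout it read 5.45, 5.37 and 5.16 in saline and 5.24, 5.20 and 5.16 with R848. Wild-type saline stood above the other three groups, all of whose arrays were at 5.45 or lower. The interaction was 0.37 (95% interval 0.12 to 0.62, limma adjusted p = 0.965). Next came Zfp946, at 0.48 as given above. Zfp960 had an interaction of -0.59 (-1.12 to -0.06), with 8.51, 8.34 and 7.89 in knockout saline and 7.61, 7.48 and 6.98 in knockout R848. Zfp777 (-0.27) and Zfp362 (-0.31) followed. The median half-width of the 95% interval of an interaction was 0.30, without adjustment for the number of genes. A difference between responses smaller than a member's own half-width would not pass even unadjusted. The adjusted test asks for more: at -0.59, the interaction of Zfp960 had a limma adjusted p of 0.965.

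**Figure D4:**
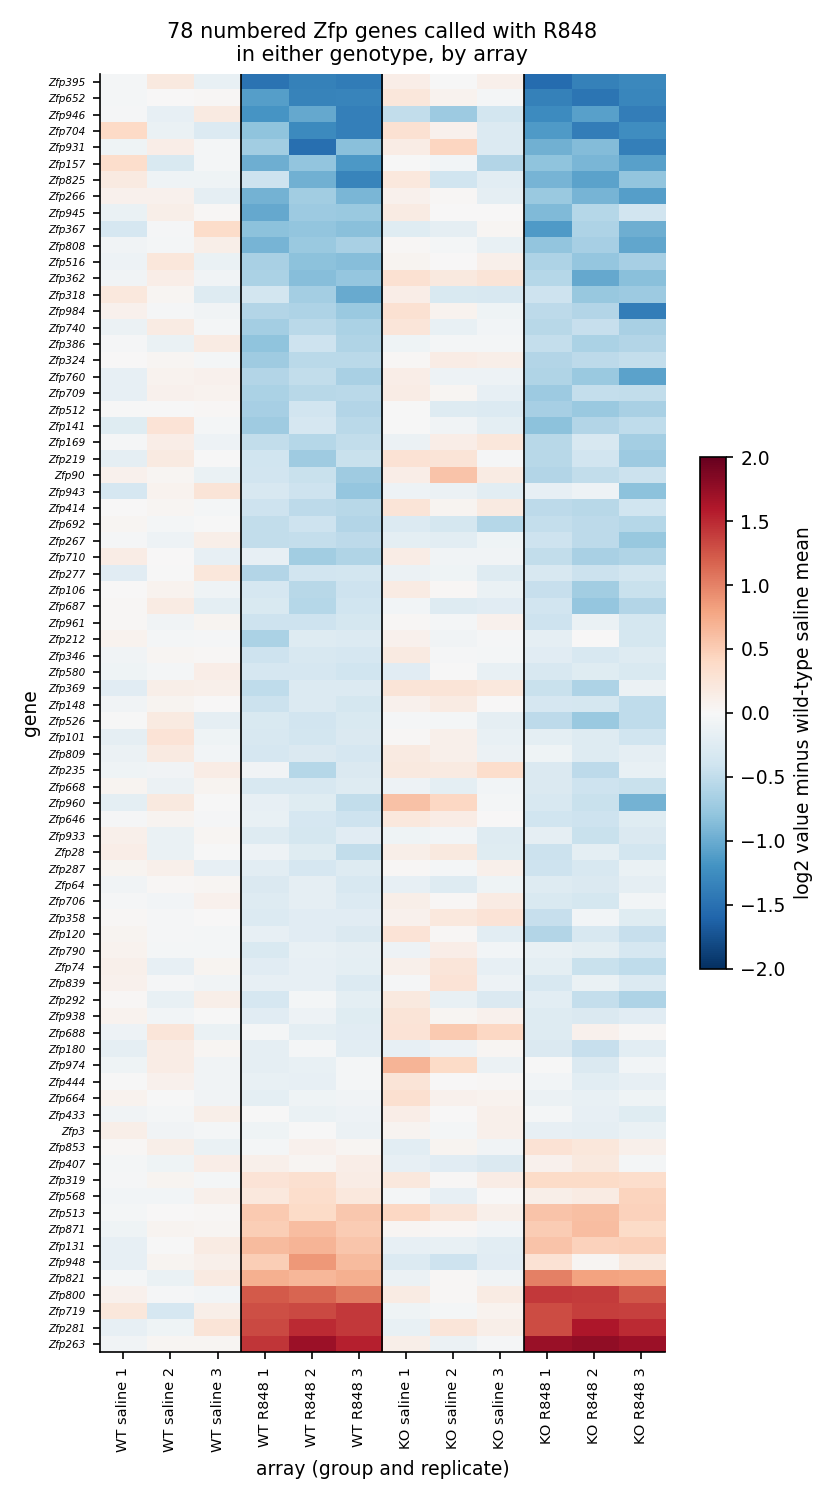
Log2 value minus the wild-type saline mean (colour, red higher and blue lower) of the 78 numbered Zfp genes that passed the test for R848 in either genotype (rows, ordered by the wild-type change), on each of 12 arrays (columns, by group and replicate). Of these, 65 fell and 13 rose in 1 or both genotypes, and Zfp395 (-1.41 in wild type) is the top row and Zfp263 (1.57) the bottom row.

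The genotypes were then compared within each treatment. In saline 0 of 161 members passed at a limma adjusted p under 0.05, where 0.334% of all tested genes did, and 13 (8.1%) had an unadjusted p under 0.05, beside 12.6% of all tested genes. With the replicate number as a block 1 passed in saline, Zfp692 (adjusted p = 0.0355). Under R848 0 passed, where 0.135% of all tested genes did, and 7 (4.3%) had an unadjusted p under 0.05, beside 8.7%. With so few genes called over the whole array, counts of 0 describe nothing particular to the family. The genotypes' arrays did not overlap in saline for 12 members on the higher and 6 on the lower side in knockout, beside 6.65% and 9.43% of all tested genes. Under R848 the counts were 9 and 11, beside 5.35% and 8.46%. The median half-width of the 95% interval in saline was 0.21 log2 units.

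Averaged over both treatments, with 6 arrays a side, 2 members passed and both were lower in knockout, where 1.78% of all tested genes passed. Zfp948 read 6.18, 6.40 and 6.45 in wild-type saline and 6.07, 5.93 and 6.12 in knockout saline. Under R848 it read 6.84, 7.21 and 6.97 in wild type and 6.64, 6.39 and 6.54 in knockout. Knockout arrays were lower than every wild-type array of the same treatment, without overlap, and the gene rose with R848 in both genotypes, by 0.66 ± 0.11 and 0.48 ± 0.11. The averaged difference was -0.39 ± 0.08 (1.31-fold lower, limma adjusted p = 0.0204). Leaving out wild-type saline replicate 3, wild-type R848 replicate 2, knockout saline replicate 2 or knockout R848 replicate 2 ended the call, with adjusted p from 0.051 to 0.0592.

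Zfp935 read 5.37, 5.41 and 5.43 in wild-type saline and 5.37, 5.28 and 4.95 in knockout saline. Under R848 it read 5.69, 5.73 and 5.48 in wild type and 5.33, 5.19 and 5.07 in knockout. The genotypes met at 5.37 in saline and were apart under R848. The averaged difference was -0.32 ± 0.08 (limma adjusted p = 0.0484), and the call was lost on leaving out any of 10 of the 12 arrays, all but knockout saline replicate 1 and knockout R848 replicate 1, with adjusted p from 0.0573 to 0.137. It was also lost with correlated pairs, without the filter on dim rows and under cyclic loess or centring over the tested genes, with adjusted p from 0.0558 to 0.0832.

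The members next in order did not pass as tested. Zfp39 read 5.03, 5.0 and 5.10 in wild-type saline and 5.19, 5.33 and 5.40 in knockout saline, and 5.17, 5.15 and 5.14 and 5.25, 5.36 and 5.33 under R848. Its knockout arrays were all higher within each treatment, by 0.21 ± 0.05 on average (limma adjusted p = 0.0545). It passed with the replicate block, array weights, cyclic loess, the stricter filter, centring over the tested genes and without knockout saline replicate 1, with adjusted p from 0.0326 to 0.0445. The second row of Zfp39 had an averaged difference of -0.01 (adjusted p = 0.957). Zfp692 and Zfp946 had averaged differences of -0.21 ± 0.06 (adjusted p = 0.0858) and -0.29 ± 0.09 (adjusted p = 0.11). In saline alone Zfp146, Zfp688 and those genes came closest: Zfp692 -0.40, Zfp946 -0.53, Zfp39 0.26, Zfp146 -0.30 and Zfp688 0.40, with adjusted p from 0.0645 to 0.144. Under R848 the smallest p were those of Zfp948 (-0.48), Zfp935 (-0.44), Zfp526 (-0.26), Zfp800 (0.21) and Zfp57 (0.21), with adjusted p from 0.15 to 0.533. The largest difference under R848, 0.71 ± 0.33, did not pass (limma adjusted p = 0.568). It was that of Zfp972, the member with the widest spread within groups, which read 6.09, 5.68 and 5.38 in wild-type R848 and 6.35, 6.51 and 6.43 in knockout R848, with no overlap. Its saline arrays read 5.95, 5.70 and 5.23 in wild type and 6.82, 5.11 and 5.34 in knockout and overlapped.

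**Figure D5:**
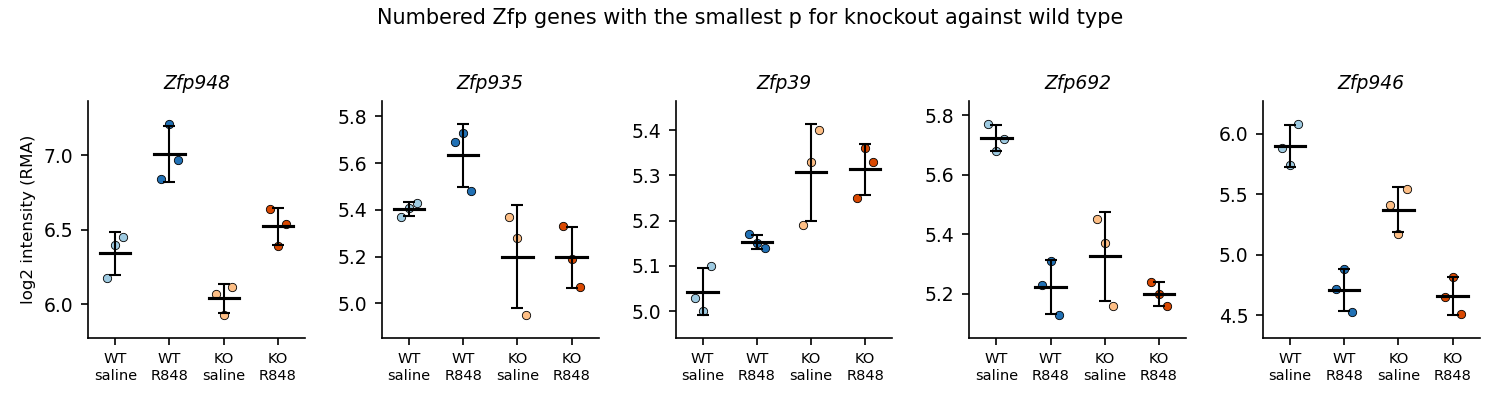
RMA log2 intensity of the 5 numbered Zfp genes with the smallest p for knockout against wild type averaged over treatments, by group. Points are arrays, lines the mean and bars the SD of 3. Zfp948 and Zfp935 passed the test (averaged difference -0.39 and -0.32), and Zfp39, Zfp692 and Zfp946 did not.

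For 12 members the array holds more than 1 row, and these did not always move together. The row used for Zfp330, the brightest of its 3, changed by -0.12 in wild type, and the other rows, at means of 6.79 and 6.57, by 0.29 and 0.43. Zfp526 has 2 rows with a mean of 5.92, of which the one used fell by 0.33 (limma adjusted p = 0.0122) and the other changed by -0.01. For Zfp709 the row used fell by 0.57 and the second row, at a mean of 5.62, changed by -0.18. The second row of Zfp39, at a mean of 4.66, had changes of -0.44 in wild type and -0.62 in knockout, where the row used had 0.11 and 0.01. Which transcripts these rows probe was not examined.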

How the data were processed

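RNA of mouse bone marrow-derived macrophages was hybridized to Affymetrix Mouse Gene 2.1 ST arrays, 3 in each of 4 groups taken from the sample titles. The deposited log2 values were made by the authors with Affymetrix Expression Console and RMA, per the submitters' processing notes. No version of either is known here. RMA makes array distributions nearly equal, so a change in total RNA is not visible. The number of arrays limits the precision.

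Rows were named by the platform table where it gave 1 symbol (23521 of 34472 rows). All 161 members matched a RefSeq gene (GRCm38.p6) by Entrez number. Genes above the 40th percentile of these rows on at least 3 arrays were tested (14079). All 12 arrays entered 1 fit with a mean per group (limma 3.58.1, lmFit and eBayes, R 4.3.3). P-values were adjusted by Benjamini-Hochberg over all tested genes, threshold 0.05, and every adjusted p is from this fit unless another setting is named. Since nothing states separate cultures, p-values reflect array-to-array spread alone, and this may be technical. The fit was tested on simulated data.

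Members and lists were chosen with earlier results of these data known. Named genes were the 10 largest non-overlapping changes per direction, and for genotype contrasts those past the threshold or the 5 smallest p. Up to 4 genes were named of each list by their R848 change, and a few others after their values were seen. Deviations of same-numbered arrays correlated above 0.1 for all 3 numbers only between knockout saline and knockout R848 (0.27, 0.17 and 0.28). This is a pattern in the values, and no label states a pairing. In the other 5 pairs of groups number 2 gave -0.21 to 0.01, number 1 gave 0.04 to 0.33 and number 3 gave 0.10 to 0.23. Alternatives covered the filter, scaling, spread estimate, arrays fitted, array weights, replicate number, row choice, limit and each array left out. Classes of protein domain were not analysed here. Scan batches were not used here.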

Additional observations from a re-analysis of the deposited data

How the results depend on the processing

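The counts of members with R848 depended most on scaling and on the limit of the set. Centring over the tested genes gave 26 rising members in wild type and 27 in knockout, and cyclic loess gave 20 in wild type. Raising the minimum mean to 6 left 66 members, of which 21 fell in wild type and 23 in knockout. That is near the shares of 29.8% and 34.8% in the full set. Of the members that rose in wild type, 7 had a mean of 7 or more and 2 a mean from 6 to 7. The rising share of the 66 was thus above the 6.8% of the full set. Of all tested genes in wild type, 15.6% rose at a mean from 6 to 7 and 26.2% at 7 or more. The rising share of the 66 lay below both. In these classes 37.0% and 28.4% of all tested genes fell, and the falling share of the 66 lay between them. In knockout 9 of the 66 rose, beside 15.8% and 27.0% of all tested genes. There 32.1% of all tested genes fell at 7 or more, and a higher share from 6 to 7. With the replicate number as a block 1 member passed for knockout in saline (Zfp692, limma adjusted p = 0.0355). Elsewhere the block moved no count by more than 1.5 times. For genotype averaged over treatments, 1 member passed without the filter on dim rows, with correlated pairs and at a minimum mean of 6, and leaving out 1 array gave 0 to 3, the 3 being Zfp948, Zfp935 and Zfp39 without knockout saline replicate 1. The second row of Zfp106 reversed its wild-type change to 0.10 (adjusted p = 0.514). Of the values of named members under alternatives, 1933 kept their side of the threshold, 31 lost the call, 22 gained it and 1 call reversed. Values not called could change sign among the 1933, as with the second rows of Zfp39 (averaged difference -0.01) and Zfp526 (0.03 between genotypes under R848). Many of the 1933 could hardly move. The 149 members with 1 row keep it in the second-row setting, and leaving out an array outside a contrast leaves the change as it was. The tally is thus no measure of robustness. Zfp639 (0.37, adjusted p = 0.0515) gained the call under 10 of the alternatives. Where no construction shows it, the cause was not tested. With 3 arrays a group and compressed dim rows, small changes are not detectable.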
